A study of Coturnix japonica with 29 samples.

Results

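Blood transcripts of LPS-injected female Japanese quail (Coturnix japonica) were compared with those of saline-injected females that had been kept with an LPS-injected male. The libraries were taken by their treatment label and came to 20 of the 29 in the series. F_LPS held 10 libraries from adult females injected with lipopolysaccharide (LPS) whose males had received saline. M_LPS held 10 libraries from adult females injected with saline and kept with LPS-injected males. The other 9 libraries, M_SAL, came from females injected with saline whose males had also received saline. They entered the fit to estimate the spread between libraries. All females were with a male for 3 h, blood was then drawn from the brachial vein of the wing, and RNA was taken from the red cell portion after the plasma had been removed. The comparison sets a bird's own immune challenge against exposure to a challenged partner, so the injection of the female and the treatment of her partner differ together and cannot be told apart within it. Neither the LPS dose nor the time between injection and meeting is given in the sources used here.

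LPS makes up much of the outer surface of Gram-negative bacteria. In vertebrates it is recognised by Toll-like receptor 4, which signals through adaptor proteins to transcription factors of the NF-kB family and raises cytokines, chemokines and antimicrobial proteins. Circulating red cells of birds, unlike those of mammals, keep their nucleus and go on making RNA, and the red cell portion can also carry some white cells and thrombocytes. Genes carry Ensembl quail identifiers, and nothing at hand pairs these with symbols. No gene below can therefore be given a name or a role, the red cell label was not checked against marker genes, and only 4 identifiers are printed. In bulk RNA of this kind, fewer cells of a type and less RNA per cell cannot be told apart.

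Totals ran from 9164081 to 14366101 reads in F_LPS and from 8898747 to 12932244 in M_LPS. A group of 10 libraries averaged 11470747 ± 1825103 reads in F_LPS and 10454496 ± 1130980 in M_LPS (SD, n = 10 each), a difference that did not pass a two-sided permutation test (adjusted p = 0.154 over 4 library measures). Of the 21561 genes, 9918 passed the low-count filter. Several libraries stood apart from their group. M_LPS replicates 6 and 7 and F_LPS replicate 8 lay at the edges of the principal components. M_SAL replicates 1 and 3 resembled F_LPS in the share of reads taken by the higher genes described below.

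The injected and the exposed females were separated along the main axis of variation. Principal components were computed on log2 CPM, where CPM is the read count as a rate per library after TMM scaling, over the tested genes and without the group labels. The first carried 23.9% of the variance, and its score averaged 30.4 ± 19.6 in F_LPS and -30.4 ± 15.8 in M_LPS (SD, n = 10 each). The difference of 60.9 passed a two-sided permutation test (adjusted p = 8e-05), and the ranges did not overlap, at -4.86 to 58.6 in F_LPS and -56.6 to -12.9 in M_LPS. The closest F_LPS libraries were replicates 1 and 2, at -4.86 and 4.15, while the other F_LPS libraries scored 22.5 or more. M_LPS replicates 6 and 7 lay at -56.5 and -56.6, beyond the -36.6 of the next library in their group.

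**Figure D1:**
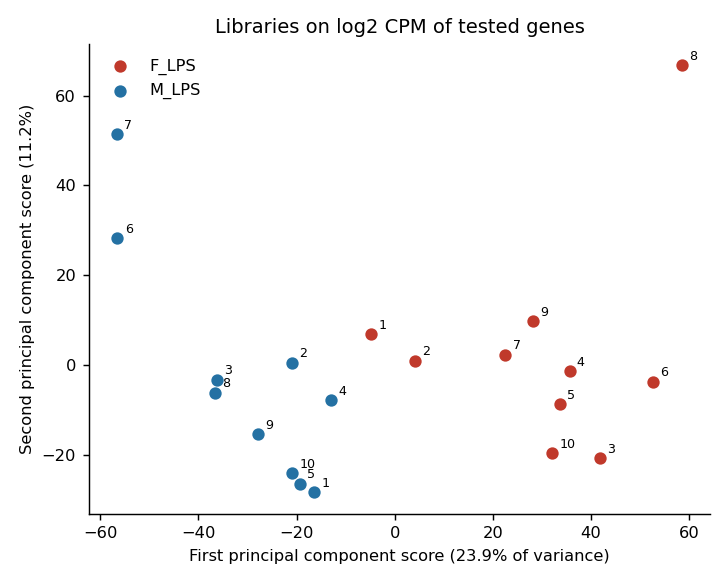
Scores of the 20 libraries on the first (x) and second (y) principal component of log2 CPM over the tested genes, numbered by replicate. F_LPS libraries lie to the right of every M_LPS library, with F_LPS replicates 1 and 2 nearest to them, and F_LPS replicate 8 stands alone at 66.7 on the second component.

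Fewer genes were detected in the injected females. After thinning every library to 8898747 reads, 12160 ± 288 genes had a read in F_LPS and 12693 ± 529 in M_LPS (SD, n = 10 each). The difference of -533 genes passed the permutation test (adjusted p = 0.0148), although the ranges overlapped, at 11789 to 12647 in F_LPS and 11912 to 13889 in M_LPS. The highest of these numbers, 13889, was that of M_LPS replicate 7. Without M_LPS replicates 6 and 7 the difference was -362 genes (permutation test, adjusted p = 0.0381). Of all 21561 genes, 7 were detected after thinning in 8 or more F_LPS and 2 or fewer M_LPS libraries. The opposite pattern was shown by 83 of the 21561. The 10 most abundant genes of each library took 22.4% ± 2.6 of its reads in F_LPS and 25.8% ± 3.4 in M_LPS (SD, n = 10 each), a difference of -3.42 percentage points (permutation test, adjusted p = 0.0181). For the 50 most abundant genes the difference was -2.49 points and did not pass (adjusted p = 0.112).

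Relative to exposed females, injected females had 436 genes higher and 227 genes lower (edgeR's quasi-likelihood fit, adjusted p below 0.05), which is 4.40% and 2.29% of the genes tested and 6.68% together. The directions differed in size and in level. Of the higher genes 179 rose by up to 2-fold, 152 by 2- to 8-fold and 105 by more than 8-fold, and the median log2 fold change was 1.35 (quartiles 0.68 and 2.86). Of the lower genes 72 fell by up to 2-fold, 109 by 2- to 8-fold and 46 by more than 8-fold, with a median of -1.82 (quartiles -2.85 and -0.72). These medians mix levels. For genes with a mean of 1 to 10 CPM over the 20 libraries they were 2.19 for higher and -2.59 for lower genes. Between 10 and 100 CPM they were 1.08 and -0.58, and above 100 CPM 0.99 and -0.58. The median over all tested genes was -0.01, and their median standard error was 0.21. With 1 surrogate variable in the fit, the counts were 142 higher and 48 lower. With upper-quartile scaling 371 genes were higher and 334 lower, so that 52.6% of the calls were higher in place of 65.8%, and the median log2 fold change over all tested genes was -0.08.

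**Figure D2:**
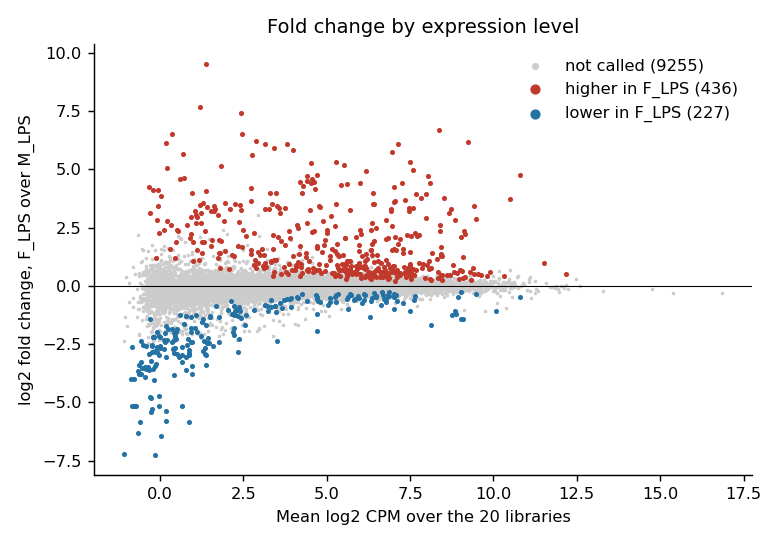
Log2 fold change of F_LPS over M_LPS (y) against the mean log2 CPM over the 20 libraries (x) for each tested gene, with called genes in colour. The 436 higher genes spread over all but the lowest levels, while the large falls among the 227 lower genes sit at the left, at low levels.

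Genes raised in injected females were mostly well expressed. Their mean level over the 20 libraries had a median of 65.4 CPM, against 5.29 CPM for the lower genes and 19.0 CPM for all tested genes. That mean includes the raised or lowered F_LPS values. Taken from the median library of each group, the middle level of the higher genes was 82.2 CPM in F_LPS, 32.6 CPM in M_LPS and 36.0 CPM in M_SAL. For the lower genes it was 1.31, 4.75 and 3.00 CPM. Above 100 CPM by the mean over the 20 libraries, 166 of 1799 tested genes (9.23%) were higher and 30 (1.67%) lower. Between 10 and 100 CPM, 193 of 4286 (4.5%) were higher and 55 (1.28%) lower. The order turned at low levels, where 76 of 3461 genes (2.2%) between 1 and 10 CPM were higher and 135 (3.9%) lower. Of these 135 genes, 120 were highest in M_LPS replicate 6 or 7, and 35 were still called lower without both. Below 1 CPM, where 372 genes were tested, 1 was higher and 7 were lower. Precision differed with level, with a median standard error of 0.12 on the log2 scale above 100 CPM and 0.35 between 1 and 10 CPM.

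Some higher genes were nearly silent in exposed females. For 45 of the 436 the median was under 1 CPM in M_LPS, and these were 7.80% of the 577 tested genes at that level. The low-count filter used libraries of all 3 groups, so such genes could pass it through F_LPS or M_SAL libraries. That favours genes high in F_LPS, and the share is given as a description. The median level of the 45 genes in F_LPS ran from 0.715 to 58.1 CPM, with a middle value of 3.09 CPM. In M_SAL, 34 of the 45 also had a median under 1 CPM.

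The gene with the largest fitted rise was ENSCJPG00005013711. Its lowest, median and highest levels were 1.80, 18.3 and 925 CPM in F_LPS, and 0, 0.131 and 0.469 CPM in M_LPS, where 4 of the 10 libraries held no read. All 10 F_LPS libraries lay above every M_LPS library. The F_LPS mean of 114 ± 286 CPM (SD, n = 10) rested on replicate 8 at 925 CPM, and the next library, replicate 6, was at 90.4 CPM. The fitted log2 fold change of 9.55 had an SE of 1.85 (edgeR adjusted p = 9.7e-04) and became 7.29 without F_LPS replicate 8. With DESeq2 it was 7.32, with limma voom 7.25, and with 1 surrogate variable it was 5.07 and missed the threshold (adjusted p = 0.0892). In M_SAL the gene stood at 107 CPM in both replicates 1 and 3 and at no more than 0.378 CPM in the other 7 libraries.

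ENSCJPG00005012237 had the largest rise in CPM among the genes called in every such refit. Its lowest, median and highest levels were 2894, 9003 and 21533 CPM in F_LPS, and 167 CPM, 289 CPM and 1089 CPM in M_LPS. The groups did not overlap, and the lowest F_LPS library was replicate 1. The mean was 10884 CPM ± 5610.01 in F_LPS and 405 CPM ± 292 in M_LPS (SD, n = 10 each), which is 4.75 on the log2 scale (SE 0.72, edgeR adjusted p = 6.8e-05). Across the refits that left out 1 of the 20 libraries it stayed between 4.58 and 5.04. This gene was among the 10 most abundant of the 20 libraries together. In M_SAL replicates 1 and 3 it stood at 5497 and 6858 CPM, and in the other 7 libraries at 106 to 890.3 CPM.

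**Figure D3:**
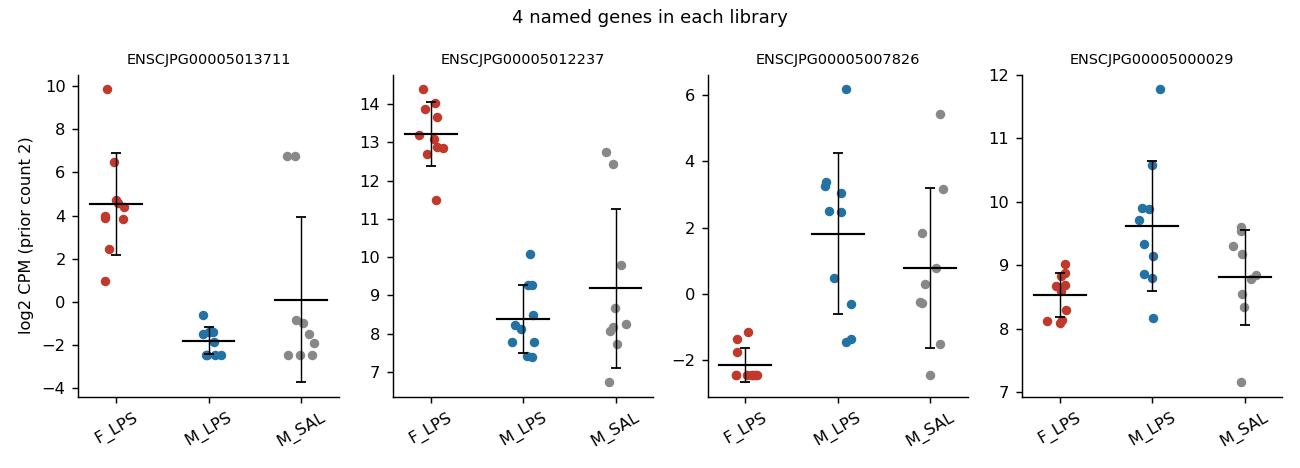
Log2 CPM (prior count of 2) of the 4 named genes in every library, with the mean and SD of each group as a bar and whiskers. The 2 genes on the left separate F_LPS from M_LPS completely, the third is near its floor in F_LPS, and in the fourth F_LPS and M_LPS overlap.

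The level of the higher genes varied more among injected than among exposed females, and it varied in M_SAL as well. The 436 higher genes, chosen on these libraries, together took 6.74% of the reads in the lowest F_LPS library, 11.1% in the median and 21.1% in the highest. In M_LPS they took 3.72%, 3.98% and 4.35%. The SD of this share was 4.57 percentage points in F_LPS (n = 10), 0.185 in M_LPS (n = 10) and 3.14 in M_SAL (n = 9), where replicates 1 and 3 stood above the others. The highest F_LPS libraries were replicates 8 and 6, at 21.1% and 19.3%, and the lowest were replicates 1 and 2, at 6.74% and 8.57%. In F_LPS, the 10 of the 436 genes with the most reads in that group accounted for 34.9% of these reads on average. The SD of log2 CPM was larger in F_LPS than in M_LPS for 350 of the 436 genes (80.3%), against 56.1% of all tested genes. Its median over the 436 was 0.69 in F_LPS and 0.38 in M_LPS. As these genes were chosen for high F_LPS values, the percentages are a description. For 45 of the 436 the M_LPS median was under 1 CPM, where the prior count of 2 compresses log2 CPM.

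The higher genes varied together within the injected group. A single component carried 67.9% of their variance among the 10 F_LPS libraries and 35.7% among the 10 M_LPS libraries. All tested genes gave 21.7% in F_LPS and 25.98% in M_LPS. The 436 genes were chosen on these libraries and all tested genes were not, so these shares are a description. F_LPS replicates 3 to 10 each exceeded every M_LPS library at 308 to 411 of the 436 genes, replicate 2 at 264 and replicate 1 at 195. The share over all tested genes was not counted, so these numbers are a description. F_LPS replicate 8 held the highest value of the 20 libraries for 256 of these genes and replicate 6 for 110, while no other F_LPS library held more than 13. Over all tested genes F_LPS replicates 6 and 8 held the highest value for 19.1%, against 83.9% of the 436. The 436 were chosen for being higher in F_LPS, and no M_LPS library held the highest value for any of them. These shares are therefore not on a like basis. Among all tested genes an F_LPS library held the highest value for 541 on average, replicate 6 for 546 and replicate 8 for 1352. Without these 2 libraries the test called 284 higher and 145 lower genes, an alternative chosen after seeing the data, and 278 of the 284 were among the 436.

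**Figure D4:**
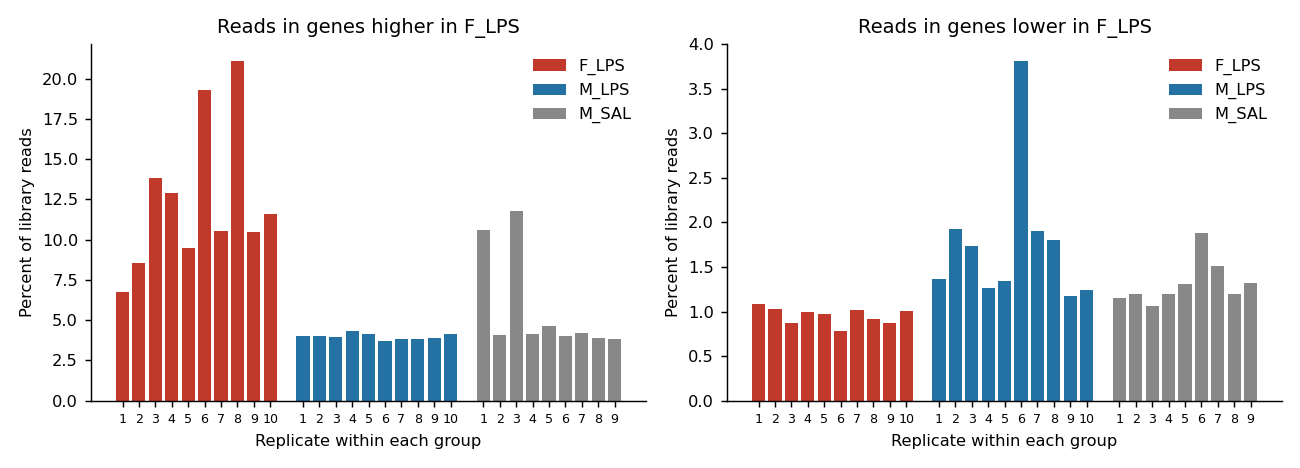
Percent of each library's reads (y) in the genes called higher (left) and lower (right) in F_LPS, by group and replicate (x). The higher genes take 6.74% to 21.1% in F_LPS and 3.72% to 4.35% in M_LPS, M_SAL replicates 1 and 3 stand above the other M_SAL libraries, and M_LPS replicate 6 stands out for the lower genes.

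Genes lower in injected females fell into a large low-level part and a smaller well expressed part. Of the 227, 142 had a mean under 10 CPM, with a median log2 fold change of -2.59, and 137 of these fell by more than 2-fold. The other 85 had a mean of 10 CPM or more and a median of -0.58, and 18 of these fell by more than 2-fold. In F_LPS the median library held under 1 CPM for 107 of the 227 genes, and in M_LPS for 5. The 227 genes took 0.780% to 1.08% of the reads in F_LPS libraries and 1.18% to 3.81% in M_LPS libraries.

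On the log2 scale, the low-level part of the lower genes had the larger spread among exposed females. The better expressed part had a like spread in both groups. For the 142 genes under 10 CPM the median SD of log2 CPM was 0.81 in F_LPS and 1.49 in M_LPS. For the 85 genes above it was 0.32 in F_LPS and 0.31 in M_LPS. Over all tested genes it was 0.46 in F_LPS and 0.41 in M_LPS. M_LPS replicate 7 held the highest value of the 20 libraries for 118 of the 227 genes and replicate 6 for 55. Together they led 126 of the 142 low-level genes (88.7%) and 47 of the 85 better expressed ones (55.3%), against 16.3% of all tested genes. The 227 were chosen for being lower in F_LPS, and no F_LPS library led more than 1 of them. These shares are therefore not on a like basis. Among all tested genes an M_LPS library held the highest value for 451 on average, replicate 6 for 617 and replicate 7 for 1004. Both libraries exceeded every F_LPS library at 203 genes (replicate 6) and 194 genes (replicate 7), while the other M_LPS libraries did so at 81 to 157. These numbers too have no count over all tested genes beside them. On the lower genes alone, 71.4% of the variance among M_LPS libraries lay on a single component, and 43.8% among F_LPS libraries. The same floor and the choice of the genes bear on both shares, which are descriptions.

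**Figure D5:**
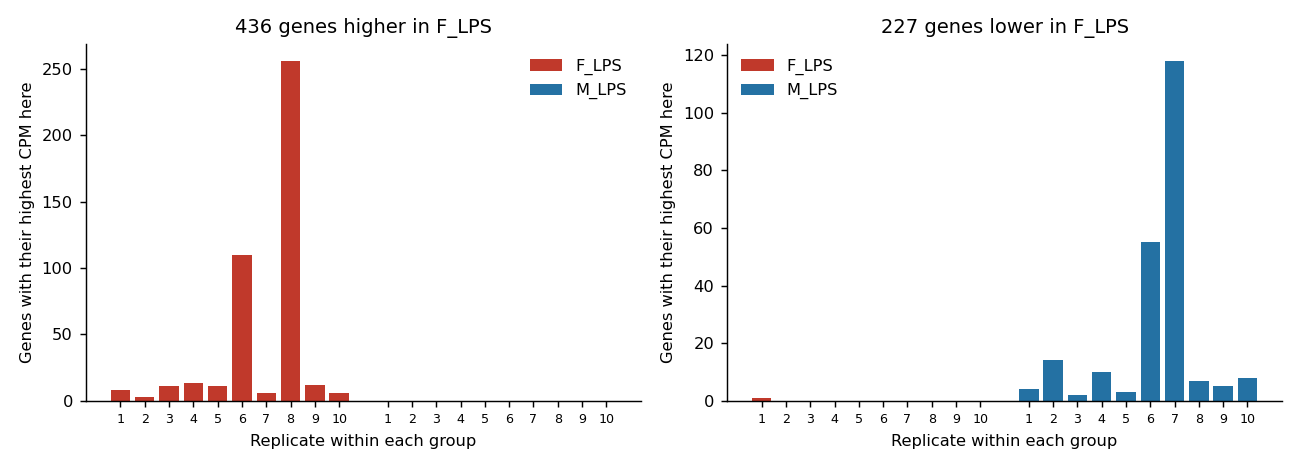
Number of called genes (y) whose highest CPM among the 20 libraries was in each library (x, replicates within each group), for higher genes (left) and lower genes (right). F_LPS replicates 8 and 6 lead 366 of the 436 higher genes, and M_LPS replicates 7 and 6 lead 173 of the 227 lower genes.

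The count of lower genes depended on these 2 libraries. It was 136 without M_LPS replicate 6, 140 without replicate 7 and 86 without both, while the higher genes numbered 380, 397 and 356. Of the 142 low-level genes 36 were still called lower without both libraries, and of the 85 better expressed genes 42. In every refit that left out 1 of the 20 libraries, 325 of the 436 higher genes (74.5%) and 108 of the 227 lower genes (47.6%) were called again. Levels were also taken from the median library of each group on the scale of log2(CPM + 1). The difference between F_LPS and M_LPS was then under 2-fold for 151 of the 227 lower genes, and its median over them was -0.85. The added 1 CPM shrinks differences at low levels, and 107 of the 227 had an F_LPS median under 1 CPM. For the 436 higher genes the median was likewise smaller on this scale than the fitted 1.35. These values therefore do not show how much of the fitted falls came from M_LPS replicates 6 and 7.

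ENSCJPG00005007826 had the largest fitted fall among the genes called in every such refit. No read was counted in 7 of the 10 F_LPS libraries, and the highest F_LPS library was at 0.266 CPM. In M_LPS its lowest, median and highest levels were 0.182, 5.43 and 71.8 CPM, the last in replicate 6. The groups overlapped only at their edges, with 8 of the 10 F_LPS libraries below every M_LPS library. The fitted log2 fold change of -7.26 had an SE of 1.37 (edgeR adjusted p = 7.2e-04), and became -5.96 without M_LPS replicate 6, -8.02 without F_LPS replicate 1, -5.24 with limma voom and -4.68 with 1 surrogate variable. In M_SAL it ran from 0 to 42.6 CPM with a median of 1.04 CPM, and the log2 fold change of M_LPS over M_SAL was 0.78 (edgeR adjusted p = 1).

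ENSCJPG00005000029 had the largest fall in CPM among the genes called in every such refit. Its lowest, median and highest levels were 271 CPM, 398 CPM and 521 CPM in F_LPS and 288 CPM, 743 CPM and 3501 CPM in M_LPS. The groups overlapped, with 3 of the 10 F_LPS libraries below every M_LPS library. The means were 379.9 ± 89.2 CPM in F_LPS and 1018 ± 941 CPM in M_LPS (SD, n = 10 each), and M_LPS replicate 6 alone stood at 3501 CPM. The fitted log2 fold change of -1.42 had an SE of 0.34 (edgeR adjusted p = 0.0068). It was -0.97 without M_LPS replicate 6 (adjusted p = 0.0231), -0.95 with limma voom, -0.92 without M_LPS replicates 6 and 7, and -0.64 with 1 surrogate variable, where it no longer passed (adjusted p = 0.488). Against M_SAL, at a median of 458 CPM, the F_LPS log2 fold change was -0.39 and did not pass (edgeR adjusted p = 0.769).

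Complete separation of the groups was far more frequent among higher genes. Over all 9918 tested genes, every F_LPS library lay above every M_LPS library for 121 genes (1.22%) and below for 6 genes (0.0605%), and all of these were also called by edgeR. The 121 genes had a median log2 fold change of 3.13, from 0.60 to 9.55, and mean levels from 2.49 to 5644 CPM. The 6 genes had a median of -4.98, from -6.30 to -0.44, and mean levels from 1.54 to 118 CPM. Without F_LPS replicates 1 and 2 the 2 counts were 206 and 25. The lower count rose to between 10 and 13 without F_LPS replicate 1, 2 or 8, or without M_LPS replicate 1, 2 or 3. With genes and scaling fixed, leaving out libraries can only keep or raise such a count. The direction of these changes is therefore no result.

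M_SAL libraries gave a further set of levels. They entered the choice of the 663 genes through the shared low-count filter and the shared estimate of spread, and with the compared groups alone 9340 genes were tested. The 436 higher genes took 10.6% and 11.8% of the reads in M_SAL replicates 1 and 3, within the F_LPS range, and 3.84% to 4.61% in the other 7. M_SAL replicates 1 and 3 exceeded every M_LPS library at 301 and 312 of these genes, and the other 7 at 28 to 65. At the lower genes M_SAL replicate 6 was the highest of its group, and it exceeded every F_LPS library at 176 of the 227. Its share of reads in these genes was 1.88%, and that of the other M_SAL libraries was 1.06% to 1.51%. For single libraries, genes above every library of another group were not counted over all tested genes. The numbers of such genes are therefore a description.

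The comparison with M_SAL shares the F_LPS libraries, and its values are given beside the above. Against M_SAL, 169 genes were higher in F_LPS (1.70% of those tested) and 60 lower (0.605%). Over the 436 genes the median log2 fold change was 1.35 against M_LPS and 0.86 against M_SAL. Over the 227 genes it was -1.82 against M_LPS and -1.02 against M_SAL. The genes were called on F_LPS against M_LPS, which favours larger values in that comparison, so these gaps are a description. The difference between the 2 comparisons is the comparison of M_LPS with M_SAL. By edgeR no gene passed in it (0.00% of those tested, smallest adjusted p = 0.427), 427 genes (4.31%) had an unadjusted p below 0.05, DESeq2 called 31 and limma voom 0. Its 95% interval had a median half-width of 0.43 on the log2 scale over all tested genes. This interval included 0 for 275 of the 436 higher genes and 185 of the 227 lower genes, and excluded it for the rest. The nearest value over all tested genes is the 4.31% with an unadjusted edgeR p below 0.05. The median log2 fold change of M_LPS over M_SAL was -0.37 over the 436 genes, with 33 positive. Over the 227 genes it was 0.62, with 19 negative, and over all tested genes -0.008. Since the called genes were chosen partly for their M_LPS values, these counts and medians are a description. Without M_SAL replicates 1 and 3, 361 genes were higher and 94 lower in F_LPS than in M_SAL, and edgeR again called 0 between M_LPS and M_SAL.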

How the data were processed

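Whole-number read counts per Ensembl gene identifier were deposited by the authors, with a different total in each of the 29 libraries. CASAVA 1.8.2, HISAT2 and DESeq2 stand in the submitters' processing notes, without their roles. Which counter, build, annotation or strand setting was used is not given in the sources used here, so reads of overlapping, antisense or near-identical genes could not be told apart. Columns were tied to samples by title, and groups come from the treatment labels. Replicates were numbered in accession order and pair nothing. Chi-square per degree of freedom was at least 29.9 between counts in the 190 pairs of the 20 libraries, so no library repeated another. Nothing in the labels says that each library came from a separate bird, so p-values measure only the spread between these samples. No sequencing batch or date was used.

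The counts were filtered with filterByExpr, given TMM factors and tested in edgeR 4.0.16 (R 4.3.3) by quasi-likelihood, with all 3 groups in 1 fit, robust estimates and Benjamini-Hochberg adjustment over all 9918 tested genes at 0.05. Tested genes held at least 99.6% of each library's reads. Standard errors are the absolute log2 fold change over the root of its F. Shares of reads use the deposited totals. CPM uses TMM factors, and log2 CPM has a prior count of 2. Library measures were tested by two-sided permutation, with 100000 resamples for 10 against 10 libraries and exactly otherwise, adjusted over 4 measures. Alternatives used DESeq2 1.42.0, limma 3.58.1 and sva 3.50.0. The gene test was also run on simulated counts, drawn independently for each gene and library. These had no outlying libraries and no genes varying together, so they do not show how such libraries affect the calls.

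Of 20956 genes in the reference table none carries an Ensembl identifier, and 0 of 21561 identifiers matched, so gene lists and cell markers were not counted. The groups, measures and alternatives were chosen with earlier results of these data known. The 4 named genes had adjusted p below 0.05, at least 5 CPM in the higher group and a call in every refit without 1 F_LPS or M_LPS library. In each direction they have the largest absolute log2 fold change and the largest difference in mean CPM.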

Additional observations from a re-analysis of the deposited data

Results flagged for a closer look

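In 2 of 22 sets of values from 10 libraries, a library lay far outside its group, and chance alone gives 1.1 such sets. On the second principal component F_LPS replicate 8 was at 66.7 and the next F_LPS library at 9.70, so the gap filled 0.652 of the range in F_LPS. The same library held the highest value of the 20 for 13.6% of all tested genes and for 256 of the 436 higher genes. F_LPS replicate 9, the library at 9.70, held it for 12.3% of all tested genes and for 12 of the 436. M_LPS replicate 6 held 3.81% of its reads in the 227 lower genes, and the next M_LPS library held 1.93%, so the gap filled 0.716 of the range in M_LPS. Of that share, 2.76 percentage points came from the 10 lower genes with the most reads in M_LPS. The 227 genes were chosen on these libraries for being lower in F_LPS, which favours high M_LPS values. The 1.1 sets take no account of that choice.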

How the results depend on the processing

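The counts of higher and lower genes in F_LPS against M_LPS were within 1.5 times of the values given under RLE scaling, upper-quartile scaling, DESeq2, limma voom, a fit of the compared groups alone, and without the 10 most abundant genes, F_LPS replicates 1 and 2, or M_SAL replicates 1 and 3. With 1 surrogate variable they were 142 and 48, and without F_LPS replicates 6 and 8 they were 284 and 145. With no filter 17024 genes were tested in place of 9918, and 482 were higher and 481 lower. A filter of 5 CPM in 10 libraries left 7302 tested genes, with 355 higher and 123 lower. The lower count was 86 without M_LPS replicates 6 and 7. Leaving out 1 library gave 366 to 463 higher and 136 to 239 lower genes. DESeq2 called 520 and 334 genes, limma voom 449 and 201. The 46 genes lower by over 8-fold became 2 with the 5 CPM filter and 297 with no filter, and the 105 higher by over 8-fold became 23 with 1 surrogate variable.

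The non-overlapping genes numbered 206 and 25 without F_LPS replicates 1 and 2. The lower ones were 12 with upper-quartile scaling, 1 with the 5 CPM filter, 11 without F_LPS replicates 6 and 8, and 6 to 13 leaving out 1 library (121 to 173 higher). With genes and scaling fixed, leaving out libraries can only keep or raise these numbers. In F_LPS against M_SAL the higher count was 281 with limma voom, 87 with the compared groups alone, 361 without M_SAL replicates 1 and 3, and 75 without F_LPS replicates 6 and 8. The lower count was 114 with DESeq2 and 14, 94 and 28 in the last 3 settings. DESeq2 called 31 genes in M_LPS against M_SAL and gave no adjusted p for 2308. The share of the 10 most abundant genes became -2.49 points (adjusted p = 0.112) when 50 genes were taken. No library left out in turn changed a call of the 4 library measures. The 4 named genes were chosen for a call in each of these refits. With the compared groups alone ENSCJPG00005007826 did not pass the filter. The cause of these changes was not tested, apart from the number of genes or libraries that a setting itself removes. No paired analysis was possible because the labels give no replicate numbers. The median half-width of a 95% interval was 0.42 on the log2 scale, which limits what these libraries can show for a gene of average spread.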
